A study of Mus musculus with 17 samples.

Results

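Adult germ cells that carry the receptor Kit were compared with the GFRA1-negative cells that lack it, in 9 of the 17 RNA sequencing libraries of the study, chosen by their titles. The Kit-positive group (n = 5) held cells that were TERT-high and Kit+. The GFRA1-negative group (n = 4) held cells that were TERT-high, Kit- and GFRa1-. Both groups were sorted from testes of adult mice of the genotype Tert-Tomato/+ on a B6/J X B6/N mixed background, so every library shares the reporter allele and the gate on high reporter signal, and no wild-type cells stand beside them. The other libraries of the study, 4 of GFRA1-positive adult cells and 4 of day 6 gonocytes, are not compared here. They entered the scaling, the filter that set which genes were tested, and the estimate of the spread of each gene. The labels call the Kit-positive cells differentiated and the GFRA1-negative cells undifferentiated spermatogonia. They do not say whether libraries of a group came from separate animals or from pools, so the p-values rest on variation between libraries, part of which could be technical. The question was what changes in the transcriptome at the step from a Kit-negative progenitor to a Kit-positive spermatogonium.

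Spermatogonia are the mitotic cells at the base of the seminiferous tubule. A small population of them renews itself under GDNF, which signals through GFRA1 and RET, and most of the rest are progenitors that divide with incomplete cytokinesis and lose GFRA1. Retinoic acid then drives an almost irreversible change in which the cells switch on Kit, the receptor for stem cell factor, and Stra8, and begin a fixed series of fast divisions that ends in meiosis. Neurog3 and Lin28a are known for the progenitor state, and Kit and Stra8 for the differentiating one. In bulk libraries such as these, fewer cells of a type and less RNA per cell cannot be told apart.

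Promoter sequences of 4 genes with large rises are shown, because they carry a short element, the CCAAT box, that was more frequent in histone, replication, mitosis and repair genes than in all genes. Stra8 encodes a factor needed for meiotic entry, H2bc14 and H2ac1 encode core histones made in S phase, and Top2a encodes the topoisomerase that untangles DNA in mitosis. Each line gives the 250 bases before the annotated transcript start, 5′ to 3′ on the strand of the gene, from RefSeq on GRCm38.p6, with CCAAT or its reverse complement in capitals.
Stra8, chr6:34920698-34920947, + strand: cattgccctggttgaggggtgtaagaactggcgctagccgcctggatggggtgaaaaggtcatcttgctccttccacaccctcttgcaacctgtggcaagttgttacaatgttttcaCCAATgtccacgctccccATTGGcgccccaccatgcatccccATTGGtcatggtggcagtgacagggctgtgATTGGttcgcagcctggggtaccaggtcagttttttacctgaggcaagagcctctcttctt
H2bc14, chr13:21721794-21722043, + strand: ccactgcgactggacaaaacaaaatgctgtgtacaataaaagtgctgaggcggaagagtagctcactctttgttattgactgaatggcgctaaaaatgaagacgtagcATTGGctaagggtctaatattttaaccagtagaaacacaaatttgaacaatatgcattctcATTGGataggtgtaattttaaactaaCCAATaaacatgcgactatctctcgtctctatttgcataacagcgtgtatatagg
H2ac1, chr13:23934187-23934436, + strand: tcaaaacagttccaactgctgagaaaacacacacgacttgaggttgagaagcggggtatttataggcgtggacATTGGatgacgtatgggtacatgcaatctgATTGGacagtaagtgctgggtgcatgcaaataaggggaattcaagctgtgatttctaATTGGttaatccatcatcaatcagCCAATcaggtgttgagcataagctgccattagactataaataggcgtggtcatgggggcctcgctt
Top2a, chr11:99024190-99024439, - strand: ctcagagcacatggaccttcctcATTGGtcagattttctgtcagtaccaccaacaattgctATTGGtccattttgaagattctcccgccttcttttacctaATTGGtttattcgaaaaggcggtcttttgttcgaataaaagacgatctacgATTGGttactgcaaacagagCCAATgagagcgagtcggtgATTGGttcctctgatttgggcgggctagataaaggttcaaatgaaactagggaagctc
Stra8 held 4 matches, H2bc14 3, H2ac1 4 and Top2a 6.

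The letters CCAAT were found, on either strand, before at least 1 annotated start of 40.8% of the 12164 tested genes that had a promoter in the table. Among the replication-dependent histones the share was 82.8%, or 48 of 58 genes. It was 63% for homologous recombination and Fanconi repair genes (17 of 27), 61.7% for mitosis and kinetochore genes (29 of 47) and 57.1% for DNA replication genes (24 of 42). Shares near or below that of all genes were found for MAPK feedback genes at 45.8% (11 of 24), meiotic prophase genes at 42.1% (16 of 38), cytosolic ribosomal protein genes at 28.6% (18 of 63) and hedgehog genes at 25% (3 of 12). Over the whole comparison the box was found for 44.5% of genes that were higher in Kit-positive cells, 40.6% of those that were lower and 39.4% of the rest. All shares here are of genes with a match before at least 1 start. The E2F letters TTTNNCGC were found for 22.4% of histone and 21.4% of replication genes, against 7.75% of all. The EGR letters GCGNGGGCG were found for 13.4% of genes that were lower, 8.99% of those that were higher and 9.96% of all. The letters CNCCTCAG, a motif given for STRA8, were found for 8.95% of higher genes, 7.48% of lower genes and 8.66% of all. The share was 13.2% for meiotic prophase (5 of 38), 12.8% for mitosis (6 of 47) and 12.5% for MAPK feedback genes (3 of 24). It was 7.41% for repair, 6.35% for cytosolic ribosomal protein, 5.17% for histone, 4.76% for replication and 0% for hedgehog genes. Exact GLI letters, GACCACCCA, were found for 0.222% of all genes, and the exact direct repeat of the retinoic acid response element for none. Looser forms of these long motifs were not searched, so the low counts cannot show that such elements are absent. Motifs were read on both strands, matches of different motifs may overlap, and a match is a description of letters and not a bound site.

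Total counts ran from 5178352 to 8300165 in Kit-positive and from 9965437 to 12641907 in GFRA1-negative libraries, so low transcripts were measured with fewer reads in the Kit-positive ones. The row with the most counts, which had no matched symbol, took 15.24% to 29.29% of a Kit-positive and 23.78% to 29.94% of a GFRA1-negative library. GFRA1-negative library 2 and Kit-positive library 1 stood apart from their groups with the highest sums of spermatid transcripts, 3022 and 2184 CPM (the count scaled to a common library size by the TMM method) against 719 to 1256 in the other libraries. The germ cell gene Ddx4, an RNA helicase, was high in both groups, with 132 CPM ± 26 (SD, n = 5) in Kit-positive and 166 CPM ± 16 (SD, n = 4) in GFRA1-negative libraries, and it did not pass (log2 fold change -0.33, edgeR adjusted p = 0.09). It passed as lower in 3 alternative fits, at -0.43 without Kit-positive library 3 (edgeR adjusted p = 0.026), at -0.37 with a replicate block (edgeR adjusted p = 0.027) and at -0.39 without the 2 most abundant rows (edgeR adjusted p = 0.048).

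The genes used in the gates and the named stage markers were read first. Kit (Entrez 16590) stood at 266, 453, 401, 347 and 296 CPM in Kit-positive libraries 1 to 5 and at 24.2, 49.3, 18.5 and 18.5 CPM in GFRA1-negative libraries 1 to 4. Every Kit-positive library lay above every GFRA1-negative one, as the gate demands, and the means differed 12.8-fold. Gfra1 (Entrez 14585), the gene of the other gate, stood at 18.6, 25.6, 21.7 and 25.4 CPM in GFRA1-negative and at 0.84, 7.19, 5.71, 3.24 and 6.58 CPM in Kit-positive libraries, so that it was lower still in cells not selected for its absence. Tert (Entrez 21752), the gene of the reporter, had 11.3 CPM ± 3 (SD, n = 4) in GFRA1-negative and 7.54 CPM ± 1.7 (SD, n = 5) in Kit-positive libraries, and the groups overlapped (log2 fold change -0.58 ± 0.30 SE, edgeR adjusted p = 0.13).

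Stra8 (Entrez 20899) was at 182, 329, 198, 262 and 272 CPM in Kit-positive and at 10.3, 11, 9.47 and 8.88 CPM in GFRA1-negative libraries. The GFRA1-negative libraries were all near 10 CPM and none came near the lowest Kit-positive library. Neurog3 (Entrez 11925), a transcription factor of progenitors, had 37.5, 28.1, 46.9 and 44.6 CPM in GFRA1-negative and 4.34, 3.59, 2.2, 1.88 and 0.346 CPM in Kit-positive libraries. Lin28a (Entrez 83557), an RNA-binding protein that blocks let-7 maturation, had 698, 514, 717 and 822 CPM and 84.1, 111, 83.8, 97.4 and 77.8 CPM in the same order. Both were lower in every Kit-positive library, Neurog3 by a mean of 15.9-fold and Lin28a by 7.57-fold. The markers therefore followed the labels of all 9 libraries.

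**Figure D1:**
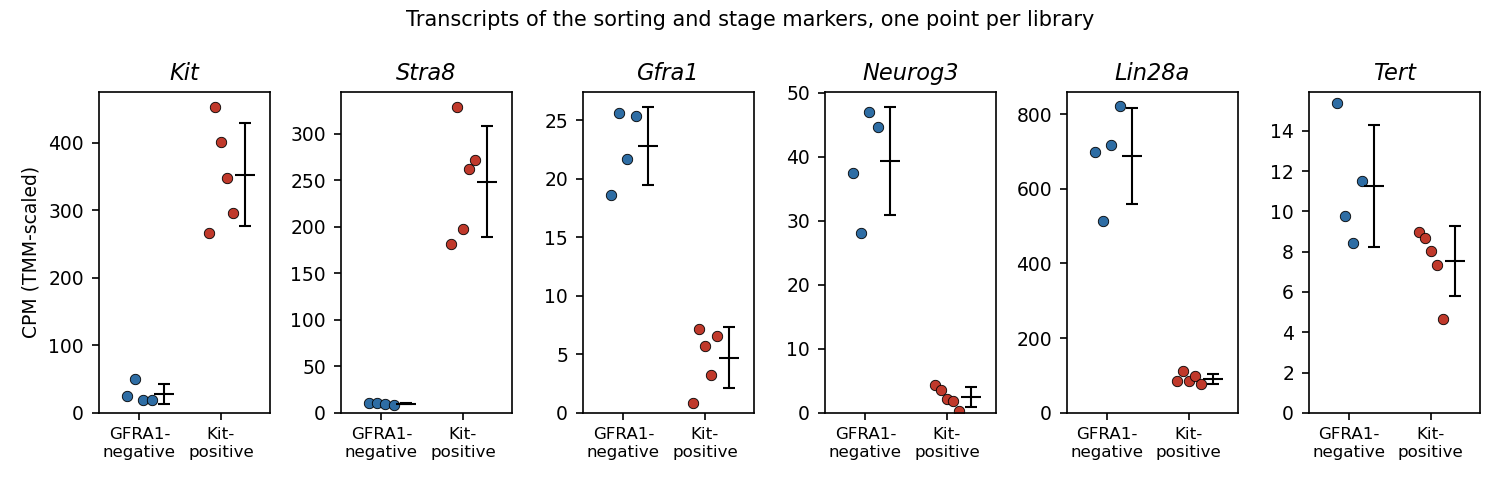
CPM of the gate genes Kit, Gfra1 and Tert and the stage markers Stra8, Neurog3 and Lin28a in the 4 GFRA1-negative (blue) and 5 Kit-positive (red) libraries, with mean and SD as black bars; each panel has its own axis from 0. Groups are apart in every panel but that of Tert, where they overlap.

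Over all genes, 15451 were tested and 6969 (45.1%) passed an adjusted p of 0.05 by the edgeR quasi-likelihood test: 3419 (22.1%) were higher and 3550 (23%) lower in Kit-positive libraries. Of these, 1637 (10.6% of genes tested) were more than 2-fold higher and 2021 (13.1%) more than 2-fold lower. The groups did not overlap in 33.8% of genes, with all Kit-positive libraries above all GFRA1-negative ones in 16.1% and below in 17.7%. The median log2 fold change of all genes was 0.03. Without GFRA1-negative library 2 and Kit-positive library 1, 3135 genes were higher and 3203 lower. With close to 1 in 2 genes called, a share of called members in a gene group is read beside these shares. Each ± after a log2 value below is a standard error.

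The largest rises by the naming rule joined regulators, histones and enzymes. Cited1 (Entrez 12705), a transcriptional coactivator, rose 28-fold, from 5.17, 5.76, 4.74 and 1.68 CPM in GFRA1-negative to 152, 127, 87.4, 150 and 91.8 CPM in Kit-positive libraries. Fgf11, an intracellular FGF-like factor, rose 19.8-fold, and Cd63, a tetraspanin of late endosomes, 12.4-fold. Ass1, an enzyme of arginine synthesis, rose 11.2-fold, Selenom, a selenoprotein of the endoplasmic reticulum, 11.6-fold, and Dscc1, part of the clamp loader for sister chromatid cohesion, 9.61-fold. Tmem9 rose 8.62-fold. Stra8, Kit, Prdm9, Rpl39, H2bc14, H2ac1 and H1f1 were also among them and are described with their groups.

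The 15 largest falls were steeper, from 34.2-fold for Tmem63c to 217-fold for Gbp2. Ptch1 (Entrez 19206), the hedgehog receptor, was at 348, 245, 310 and 347 CPM in GFRA1-negative and at 2.24, 6.15, 4.93, 1.36 and 2.6 CPM in Kit-positive libraries. Six4 (Entrez 20474), a homeobox factor, was at 108, 92.1, 143 and 158 CPM and 0.7, 0.928, 1.17, 1.71 and 2.77 CPM in the same order. Enc1, an actin-binding BTB protein, was at 214, 156, 205 and 221 CPM and 3.36, 4.99, 3.63, 2.39 and 3.64 CPM. In all 3 genes the highest Kit-positive library was far below the lowest GFRA1-negative one.

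Gbp2, an interferon-inducible GTPase, had 35.6, 14.6, 32.8 and 40.2 CPM in GFRA1-negative libraries and 6 counts over all 5 Kit-positive ones, with a log2 fold change of -7.41 ± 0.52 that was -9.23 without Kit-positive library 2. The fall of Nr2e1, an orphan nuclear receptor, was 75.3-fold, that of Tbx20, a T-box factor, 64.4-fold and that of Havcr1, a phosphatidylserine receptor, 63.6-fold (log2 -5.90, and -6.49 without GFRA1-negative library 2 and Kit-positive library 1 together). Arhgef15 and Fgd5, guanine nucleotide exchange factors, fell 56.9-fold and 39.1-fold, and Rin2, an exchange factor for Rab5, fell 49.6-fold. Lhfpl2 (48.2-fold), Large2, a glycosyltransferase (37.9-fold), Tmem63c (34.2-fold) and Cdkn1b (52.9-fold) were the others. The row of Mir6236 had 308, 199, 29 and 17.9 CPM in GFRA1-negative and 1.96, 0.696, 0.778, 2.22 and 0.346 CPM in Kit-positive libraries, so its values within 1 group spanned more than 10-fold, and its log2 fold change of -6.86 ± 0.97 was -6.11 without GFRA1-negative library 1.

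Factors known for the progenitor and undifferentiated states fell as a group. Of 28 tested, 20 were lower and 2 higher in Kit-positive cells (1 higher without GFRA1-negative library 2 or 4), with a median log2 fold change of -2.51. Zfp462, a zinc finger protein, had 606, 526, 696 and 733 CPM in GFRA1-negative and 14.6, 36.8, 34.5, 21.3 and 21.3 CPM in Kit-positive libraries. Zbtb16, the PLZF repressor needed for spermatogonial maintenance, had 400, 321, 441 and 455 CPM and 31.5, 56.7, 44.5, 33.1 and 30.7 CPM. Foxo1, a forkhead factor that acts downstream of PI3K signalling, fell from 637 CPM ± 131 (SD, n = 4) to 122 CPM ± 24 (SD, n = 5).
The same held for zinc finger factors of the SALL family, where Sall1 fell by 3.68 ± 0.23 and Sall4 by 1.79 ± 0.23 on the log2 scale. Glis3, a Krüppel-like zinc finger factor, fell by 4.01 ± 0.20, Nanos3, an RNA-binding repressor, by 3.21 ± 0.29 and Sox3, an HMG-box factor, by 3.12 ± 0.34. Genes known for the GDNF-responsive stem cells fell as well: Etv5 from a mean of 33.3 to 5.15 CPM, Bcl6b from 18.5 to 3.91 CPM and Id4 from 6.51 to 2.42 CPM. The exceptions were Taf4b, a TFIID subunit of germ cells, which rose by 0.54 ± 0.13, and Dazl, an RNA-binding protein, which was higher by 0.46 ± 0.16 with all libraries but not without GFRA1-negative library 2 (0.34, edgeR adjusted p = 0.08) or 4 (0.41, edgeR adjusted p = 0.07). Dazl also did not pass in the fit on the 9 libraries alone (0.42, edgeR adjusted p = 0.068), with an offset for transcript length (0.36, edgeR adjusted p = 0.085) or without GFRA1-negative library 2 and Kit-positive library 1 together (0.36, edgeR adjusted p = 0.084). Pou3f1 at -0.25 ± 0.21, Eomes at -0.65 ± 0.40 and Magea4 at 1.23 ± 0.75 did not pass, although Magea4 did by limma voom (1.95, limma adjusted p = 0.025).

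Regulators of differentiation and meiotic entry went mostly the other way, with 14 of 19 higher, 2 lower and a median of 0.78. Rhox13, an X-linked homeobox gene of differentiating germ cells, had 43, 38.1, 37.9, 59.5 and 45 CPM in Kit-positive and 6.49, 4, 8.55 and 6.51 CPM in GFRA1-negative libraries. Prdm9, the methyltransferase that places recombination hotspots in meiosis, had 22.3, 20.3, 26.3, 54.2 and 24.6 CPM and 3.67, 3.28, 2.77 and 1.88 CPM. In neither gene did the groups overlap.
Crabp1, which binds retinoic acid in the cytosol, rose by 2.51 ± 0.23 on the log2 scale, Esx1, another X-linked homeobox gene, by 2.55 ± 0.33 and Bmyc, a short MYC relative, by 3.22 ± 0.42. Meioc, a partner of YTHDC2 in the exit from mitosis, rose by 1.58 ± 0.29. The pair of bHLH factors that acts early in differentiation split, with Sohlh2 up by 0.78 ± 0.17 and Sohlh1 at -0.11 ± 0.22 (edgeR adjusted p = 0.71; at 0.07 without Kit-positive library 5). Ccnd2, a cyclin known to appear in differentiating spermatogonia, fell by 0.63 ± 0.16, and Dnmt3a, a de novo DNA methyltransferase, by 0.78 ± 0.15. Uchl1, a marker of spermatogonia at large, was at 0.32 ± 0.19 (edgeR adjusted p = 0.19).

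**Figure D2:**
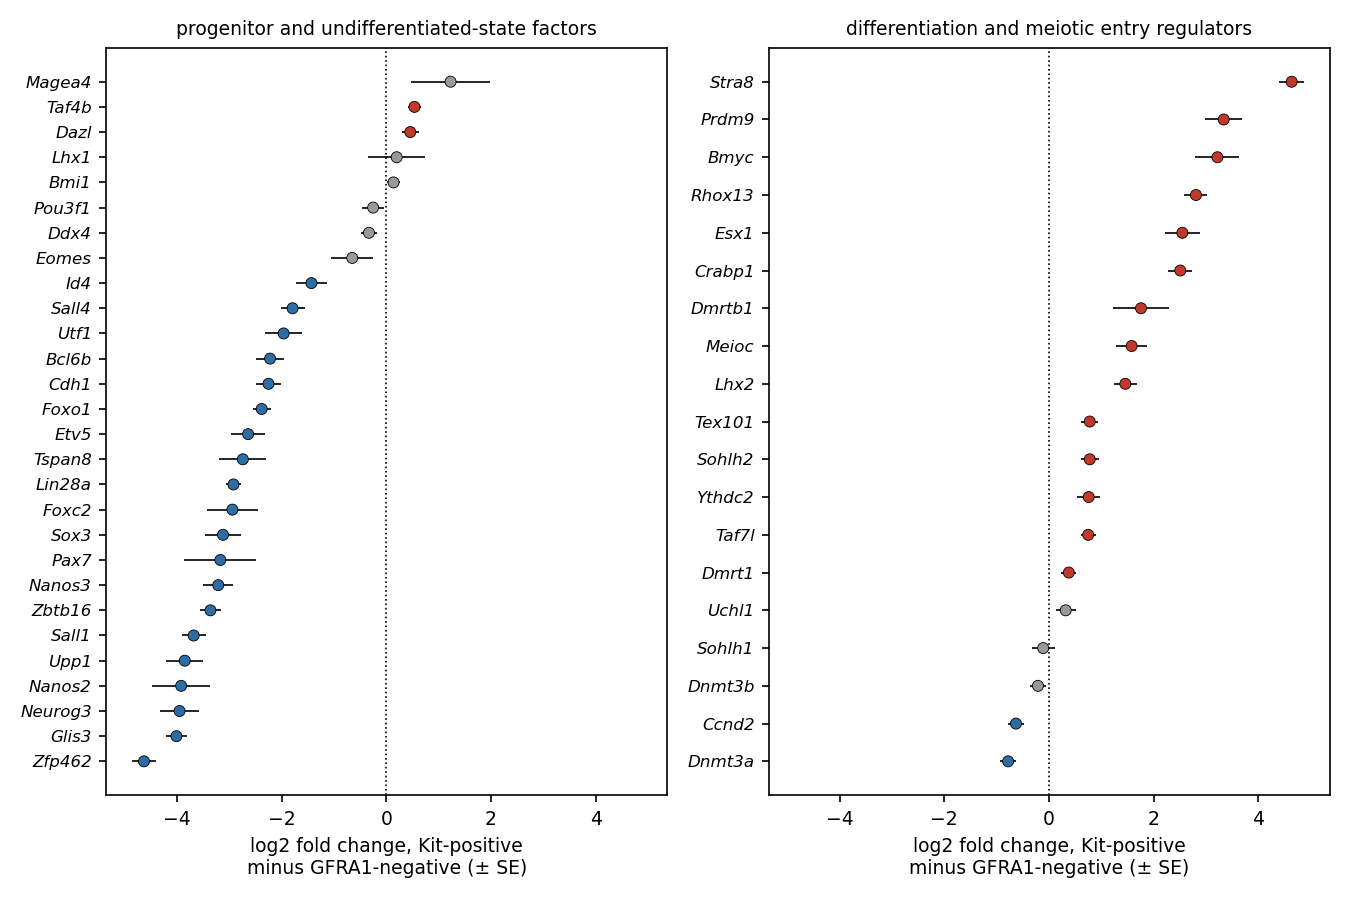
Log2 fold change, Kit-positive minus GFRA1-negative, with SE, of every tested member of the progenitor list (left) and the differentiation list (right); red and blue points passed the edgeR threshold as higher and lower, grey did not. On the left 20 of 28 genes lie below 0 in blue, and on the right 14 of 19 lie above 0 in red.

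Of 26 retinoid genes tested, with a median of 0.40, 9 were higher (34.6%) and 4 lower (15.4%), against 22.1% and 23% of all genes. Among the binding proteins Crabp1 rose as given with the differentiation regulators and Rbp4, the retinol carrier of plasma, by 2.49 ± 0.25. Cyp26b1, which breaks retinoic acid down, rose by 2.59 ± 0.53, from a mean of 1.83 to 11.1 CPM. The receptors named here fell: Rarg by 1.98 ± 0.21, Rxra by 1.55 ± 0.14 and Rara by 0.92 ± 0.15. The storage enzyme Lrat at 1.01 ± 0.55 and the dehydrogenase Rdh10 at 0.55 ± 0.29 did not pass.

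In a list drawn up for Kit receptor signalling, more genes fell than rose. Of 37 ligand, adaptor, kinase and target genes tested, 18 fell (48.6%) and 6 rose (16.2%), with a median of -0.57. The shares over all genes were 23% and 22.1%. Activators and inhibitors were counted alike, so these counts do not give the activity of the receptor. Pik3cd, a catalytic PI3K subunit, fell by 2.66 ± 0.22 on the log2 scale, Stat3 by 1.72 ± 0.19 and Socs3, its feedback inhibitor, by 3.37 ± 0.34. Ddit4, an inhibitor of mTORC1, fell from a mean of 26.8 to 0.816 CPM, and Sesn1, another, by 1.61 ± 0.18. Foxo3, a forkhead factor that AKT excludes from the nucleus, fell by 1.51 ± 0.18. In the other direction Rheb, the GTPase that activates mTORC1, rose by 1.37 ± 0.17 and Rps6kb1, the S6 kinase, by 0.72 ± 0.20.

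The GDNF arm was lower at its receptor and mixed elsewhere. Ret, the signalling partner of GFRA1, had 125, 136, 154 and 177 CPM in GFRA1-negative and 4.2, 6.84, 11.3, 7.33 and 2.43 CPM in Kit-positive libraries. Of 13 receptors and ligands of the GDNF and FGF families, 4 rose (30.8%) and 3 fell (23.1%), against 22.1% and 23% of all genes. Fgfr1 fell by 1.26 ± 0.19, while Fgfr3 rose by 1.28 ± 0.23 and Fgf11 had 7, 16.1, 17, 43.8 and 36 CPM in Kit-positive libraries against 1.03, 1.92, 1.5 and 0.395 CPM. Gfra3 at 0.52 ± 0.31 and Gfra4 at -0.61 ± 0.37, receptors for related ligands, did not pass.

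Among feedback and early response genes of the MAPK pathway, 14 of 31 fell (45.2%) and 4 rose (12.9%), against 23% and 22.1% of all. EGR zinc finger factors were among those that fell. Egr1 had 280, 217, 300 and 293 CPM in GFRA1-negative and 10.2, 16.5, 17.8, 15.7 and 10.9 CPM in Kit-positive libraries, and Egr4 fell from a mean of 126 to 6.51 CPM. The inhibitors Il17rd and Dusp6 fell by 3.02 ± 0.20 and 2.99 ± 0.35. Gadd45b, a stress-response gene, rose by 3.05 ± 0.44. Dusp4 at -0.38 ± 0.33, Fosl2 at 0.17 ± 0.21 and Spry2 at 0.41 ± 0.32 did not pass.

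In the hedgehog pathway 7 of 15 genes fell (46.7%) and 1 rose (6.67%), against 23% and 22.1% of all genes. With an offset for transcript length 5 fell and 1 rose. Ptch1 is both the receptor and a transcriptional target of the pathway. The co-receptor Cdon fell by 1.45 ± 0.19 on the log2 scale. Gli2, a transcription factor of the pathway, rose by 2.42 ± 0.40, from a mean of 3.89 to 20.9 CPM, while Gli1, the usual target gene, was low in both groups, at 1.4 and 0.665 CPM.

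Notch genes changed in both directions, 8 higher (34.8%) and 7 lower (30.4%) of 23, against 22.1% and 23% of all genes. The ligand Jag2 rose by 1.29 ± 0.24 and Dll4, a ligand at low counts, by 3.39 ± 0.59. The receptor Notch2 fell by 0.95 ± 0.13, the coactivator Maml3 by 4.39 ± 0.40 and the target Hes5 by 2.62 ± 0.44. Hes6, which opposes HES factors, rose by 2.23 ± 0.42.

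In the BMP, activin and TGF-beta pathways, 7 of 32 genes rose and 9 fell, with a median of 0.07. These shares, 21.9% and 28.1%, were near the 22.1% and 23% of all genes. Among single genes, the activin type I receptor Acvr1b (-2.50 ± 0.27), the effector Smad3 (-2.51 ± 0.21) and the activin antagonist Fst (-2.34 ± 0.36) were lower. The BMP ligand Bmp7 (1.48 ± 0.18) and the BMP effector Smad1 (0.75 ± 0.15) were higher. Smad4, the common effector, was at -0.04 ± 0.12.

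Wnt genes had 7 higher (4 without GFRA1-negative library 4) and 8 lower of 37. These shares, 18.9% and 21.6%, were near the 22.1% and 23% of all genes, so the changes below are of single genes. The secreted protein Dkk3 fell from a mean of 70.5 to 2.96 CPM, the transcription factor Tcf7l2 from 61.1 to 3.8 CPM and the receptor Fzd2 from 15.5 to 1.27 CPM. The co-receptor Lrp5 rose by 1.38 ± 0.21 and the R-spondin receptor Lgr4 by 1.22 ± 0.20. Lrp6, the other co-receptor, was at -0.21 ± 0.18 (edgeR adjusted p = 0.36).

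Of 28 cytokine and growth factor receptors and ligands, 13 fell (46.4%) and 4 rose (14.3%), against 23% and 22.1% of all genes. Igf1r, the receptor for insulin-like growth factors, fell from 621 CPM ± 42 (SD, n = 4) to 166 CPM ± 39 (SD, n = 5). The chemokine Cxcl12 had 40.6, 25.4, 53.6 and 50.3 CPM in GFRA1-negative and 1.82, 0.928, 2.33, 2.56 and 0.346 CPM in Kit-positive libraries. The chemerin receptor Cmklr1 fell by 3.58 ± 0.33, the collagen receptor Ddr1 by 4.43 ± 0.43 and the LIF receptor Lifr by 1.63 ± 0.16. Met, the receptor for hepatocyte growth factor, rose by 1.68 ± 0.14.

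Surface and adhesion molecules changed in both directions. Of 38 tested, 12 rose (31.6%) and 9 fell (23.7%), against 22.1% and 23% of all genes. Itgav rose by 2.86 ± 0.26, Alcam by 2.08 ± 0.31, Cdh2, N-cadherin, by 1.36 ± 0.21 and Epcam by 1.44 ± 0.16. Cdh1, E-cadherin, fell by 2.25 ± 0.23, Itga6, an integrin long used to enrich stem cells, by 1.36 ± 0.16 and Itga9 by 3.00 ± 0.44. Cadm1 at 0.16 ± 0.10 and Cd151 at 0.19 ± 0.14 did not pass.
Axon guidance genes often serve as contact receptors outside the nervous system. Among 46 of them, 15 fell (32.6%) and 6 rose (13%), against 23% and 22.1% of all genes. The semaphorin receptor Plxnb1 fell by 3.36 ± 0.27, Sema4b and Sema6d by 1.57 ± 0.14 and 1.35 ± 0.15, and the ephrin receptor Ephb4 rose by 2.01 ± 0.26.

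In 3 families of transcription factors more genes fell than rose. Of 21 forkhead genes tested, 13 fell and 2 rose, with a median of -1.42. Foxf1 had 163, 127, 178 and 204 CPM in GFRA1-negative and 2.94, 8.46, 5.06, 4.95 and 3.98 CPM in Kit-positive libraries, and all 4 tested FOXO genes fell, Foxo6 by 1.90 ± 0.23 and Foxo4 by 1.95 ± 0.49 beside Foxo1 and Foxo3. Foxk1 fell by 2.11 ± 0.23. Foxn4 and Foxn2 rose, by 3.42 ± 0.44 and 0.96 ± 0.14, and Foxm1, a driver of mitotic genes, was at 0.10 ± 0.14 (edgeR adjusted p = 0.61).
Of 18 SOX and sine oculis homeobox genes, 7 fell (38.9%) and 3 rose (16.7%), against 23% and 22.1% of all genes. The count that rose was 1 without Kit-positive library 5 and 0 without GFRA1-negative library 2. Sox13 fell from a mean of 85.7 to 3.54 CPM, Sox4 by 1.31 ± 0.16 on the log2 scale and Six2 by 2.28 ± 0.64. The test called 10 of 30 nuclear receptors lower (33.3%) and 5 higher (16.7%), against 23% and 22.1% of all genes. Beside Nr2e1, Nr5a2 fell by 2.31 ± 0.26 and the circadian repressor Nr1d1 by 1.29 ± 0.16. Nr3c1, the glucocorticoid receptor, rose by 0.86 ± 0.15 and Nr6a1, a germ cell orphan receptor, by 0.53 ± 0.11.

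Genes that hold or release the cell cycle moved with a sharp loss of CDK inhibitors of the CIP/KIP family. Cdkn1b, p27, had 25.8, 15.9, 27.3 and 24.4 CPM in GFRA1-negative and 0.56, 0.348, 0.259, 0 and 1.04 CPM in Kit-positive libraries, with 15 counts over the latter group. Cdkn1c, p57, had 30.8, 23.2, 31.9 and 31.4 CPM and 3.64, 9.04, 7.91, 8.87 and 2.6 CPM. The third member, Cdkn1a, p21, was at 0.54 ± 0.29 (edgeR adjusted p = 0.14; 0.037 without Kit-positive library 2).
Of 20 genes of the E2F and RB families and CDK inhibitors, 7 rose (35%) and 4 fell (20%), against 22.1% and 23% of all genes. E2f2, an activator, rose by 2.63 ± 0.40, and the late repressors E2f7 and E2f8 by 0.97 ± 0.14 and 1.52 ± 0.27. E2f6, which represses germ line genes in somatic cells, fell by 1.15 ± 0.15. Rb1 at -0.29 ± 0.19 and E2f4 at 0.22 ± 0.20 did not pass, although Rb1 did with an offset for transcript length (-0.59, edgeR adjusted p = 0.036).
Among cyclins and their kinases 10 of 18 rose and 3 fell (5 without GFRA1-negative library 2). Ccne2, a cyclin of S phase entry, had 101, 99.7, 101, 181 and 161 CPM in Kit-positive and 25.4, 26.3, 24.7 and 13.8 CPM in GFRA1-negative libraries. Ccna2, the cyclin of S and G2 phases, had 315, 308, 264, 329 and 333 CPM and 100, 105, 107 and 91 CPM. Ccnd1 rose by 1.63 ± 0.12 while its kinases Cdk4 and Cdk6 fell by 0.73 ± 0.14 and 0.46 ± 0.12.
In the MYC network, 7 of 14 genes fell (50%) and 4 rose (28.6%), against 23% and 22.1% of all genes. Without GFRA1-negative library 4 the count that fell was 4. The count that rose was 2 without GFRA1-negative library 1 or 4. Mycn fell from 63.4 CPM ± 8.6 (SD, n = 4) to 19.3 CPM ± 4.4 (SD, n = 5), its partner Max from 293 CPM ± 41 (SD, n = 4) to 98.7 CPM ± 8.7 (SD, n = 5), and the antagonist Mnt by 2.38 ± 0.20. Myc itself was low in both groups, with means of 0.377 and 0.159 CPM.

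Of 51 DNA replication genes, 42 (82.4%) rose and 4 fell, with a median of 0.87. The nucleotide enzyme Rrm2 rose by 2.59 ± 0.21 on the log2 scale, the sliding clamp Pcna by 1.84 ± 0.14, the primase subunit Prim1 by 1.78 ± 0.15, the origin subunit Orc1 by 1.22 ± 0.13 and the licensing inhibitor Gmnn by 2.43 ± 0.19. Of the MCM helicase, Mcm3 rose by 1.03 ± 0.15 and Mcm4 by 1.05 ± 0.11, and Mcm7 was at 0.16 ± 0.13 and Mcm10, a loading factor, at 0.15 ± 0.11. The chromatin assembly subunit Chaf1b fell by 0.99 ± 0.20 and the polymerase subunit Pole by 0.47 ± 0.14.
Among 54 mitosis and kinetochore genes, 36 rose and 0 fell by the edgeR test. At an unadjusted p of 0.05 the count lower was also 0, as it was by DESeq2 and limma voom, and leaving out Kit-positive library 5 or GFRA1-negative library 2 gave 1. With an offset for transcript length 33 rose and 1 fell. Top2a had 451, 517, 618, 727 and 687 CPM in Kit-positive and 221, 228, 225 and 176 CPM in GFRA1-negative libraries. The centromeric histone Cenpa rose by 1.77 ± 0.14, the kinesin Kif4 by 1.81 ± 0.12, the spindle factors Tpx2 and Prc1 by 1.17 ± 0.11 and 1.58 ± 0.16, and the ubiquitin-conjugating enzyme Ube2c by 1.68 ± 0.16. Cenpt and Cdca5, at -0.18 ± 0.15 and -0.16 ± 0.13, did not pass.

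Replication-dependent histone genes, whose transcripts are made in S phase and mostly lack a poly(A) tail, held some of the largest rises. H2bc14 had 2027, 1848, 1187, 3915 and 1178 CPM in Kit-positive and 113, 143, 146 and 67.2 CPM in GFRA1-negative libraries. H2ac1, a testis-enriched H2A gene, had 1339, 1007, 824, 2248 and 741 CPM and 107, 94.1, 114 and 29.4 CPM. H1f1, a linker histone, rose from 141 CPM ± 38 (SD, n = 4) to 1255 CPM ± 375 (SD, n = 5). In all 3 genes every Kit-positive library was above every GFRA1-negative one, and GFRA1-negative library 4 was the lowest.
By class the change was uneven. Of 17 H2A genes 14 rose and 1 fell, of 16 H2B genes 11 rose and 2 fell, and of 6 linker H1 genes 3 rose. Of 12 H3 genes 5 rose and 1 fell, and of 12 H4 genes 1 rose and 1 fell. The medians were 2.26 for H2A, 1.69 for H2B, 0.95 for H1, 0.71 for H3 and 0.05 for H4. These are families of near-identical genes whose reads can be split between copies, so the value of a single histone gene is uncertain.

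**Figure D3:**
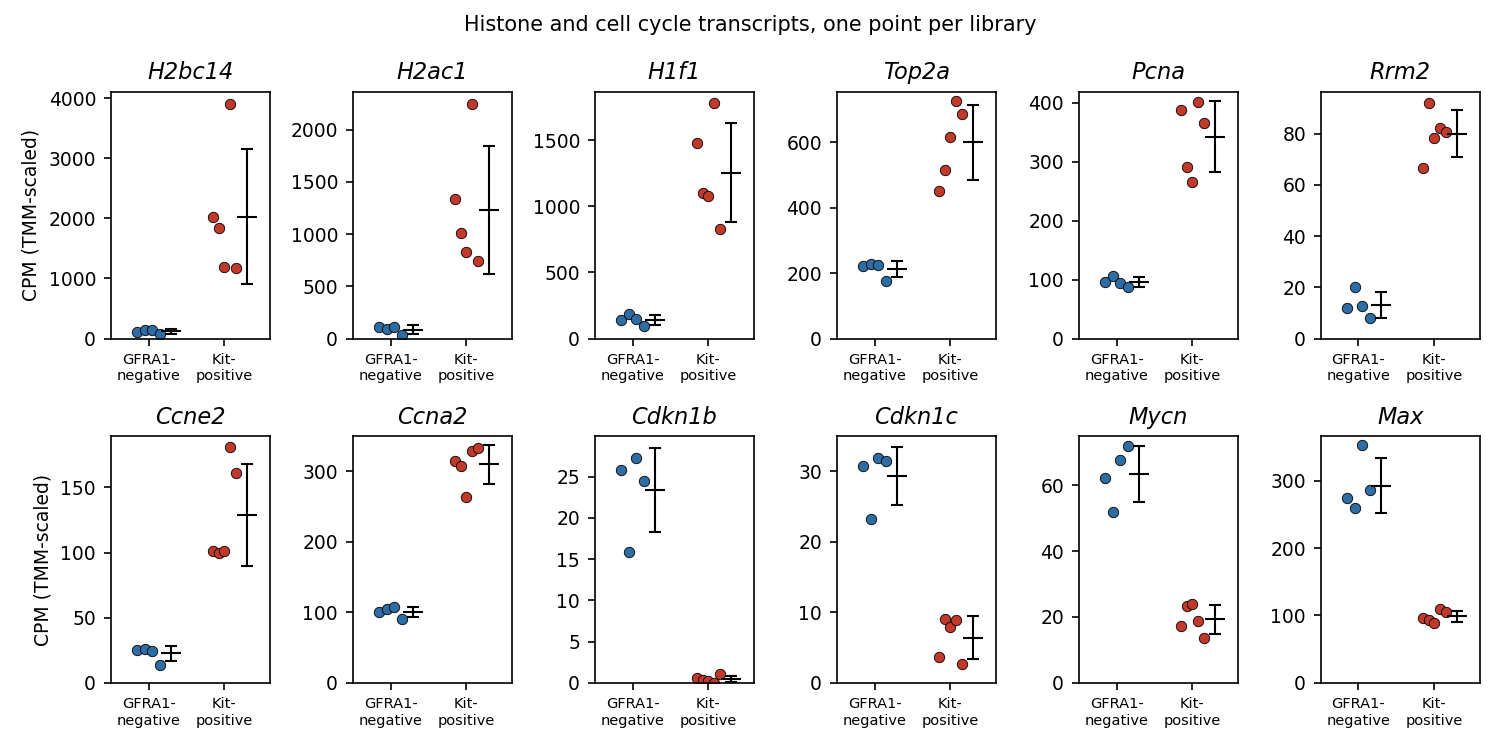
CPM per library of histone, replication, cyclin and CDK inhibitor genes and of Mycn and Max in GFRA1-negative (blue, n = 4) and Kit-positive (red, n = 5) libraries, with mean and SD; each panel has its own axis from 0. The groups are apart in all 12 panels, upward in the first 8 genes and downward in Cdkn1b, Cdkn1c, Mycn and Max.

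Genes of meiotic prophase rose in part. Of 45 tested, 18 were higher and 0 lower by the edgeR test, with a median of 0.27. The count lower was 3 at an unadjusted p of 0.05, 1 by DESeq2 and 2 by limma voom, and it was 5 without Kit-positive library 4 and 2 without GFRA1-negative library 2. With an offset for transcript length 19 were higher and 1 lower. The genes that rose included Mei1 (1.74 ± 0.23), Mei4 (1.33 ± 0.22) and Iho1 (1.45 ± 0.21), which prepare double-strand breaks, Dmc1 (1.45 ± 0.24), the meiotic recombinase, Tex11 (1.58 ± 0.18), an X-linked crossover factor, and Rec8 (1.58 ± 0.31), the meiotic cohesin. The synaptonemal complex genes Sycp1 and Sycp3 were at 0.05 ± 0.37 and -0.10 ± 0.35, and Spo11, the enzyme that cuts DNA, at -0.39 ± 0.41 with means of 5.72 and 4.38 CPM. None of these 3 passed, and the sign of Sycp1 and Sycp3 turned when single libraries were left out, to -0.16 for Sycp1 without Kit-positive library 5 and to 0.32 for Sycp3 without GFRA1-negative library 1. Among 36 genes of homologous recombination and Fanconi repair, 18 rose and 4 fell, led by the checkpoint kinase Chek1 (1.72 ± 0.18), with Brca1 (0.99 ± 0.14) and Fancd2 (0.75 ± 0.11). Fancg and Fancc, of the Fanconi core complex, fell by 0.84 ± 0.14 and 0.67 ± 0.18.

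More regulators of histone methylation fell than rose. Of 48 histone lysine methyltransferases and demethylases, 26 fell and 9 rose. Among 19 demethylases 12 fell and 3 rose, and among 29 methyltransferases 14 fell and 6 rose. Setd7 fell from 128 CPM ± 26 (SD, n = 4) to 12.8 CPM ± 4.2 (SD, n = 5), Setd1b and Kmt2d, writers of H3K4 methylation, by 2.77 ± 0.29 and 2.02 ± 0.21, and the H3K9 demethylases Kdm3a and Kdm3b by 1.25 ± 0.13 and 1.23 ± 0.14. Setdb2 rose by 1.58 ± 0.15 and Nsd2, a writer of H3K36 methylation, by 0.66 ± 0.11.
Polycomb genes split, 10 higher (32.3%) and 7 lower (22.6%) of 31, against 22.1% and 23% of all genes. Cbx7, a reader of H3K27 methylation, fell from a mean of 32.9 to 5.63 CPM. Pcgf6, of a variant complex that represses germ line genes, fell by 2.29 ± 0.19, and the histone-binding subunits Rbbp4 and Rbbp7 rose by 1.17 ± 0.16 and 0.85 ± 0.12. The DNA methylation machinery had 5 higher (29.4%) and 5 lower (29.4%) of 17, against 22.1% and 23% of all genes. The count higher was 3 without Kit-positive library 2 or GFRA1-negative library 4. In this list Tet3 fell by 1.18 ± 0.15 and Mbd2 by 0.88 ± 0.13. Of the piRNA and germ granule genes, 26 tested, 11 fell (42.3%) and 4 rose (15.4%), against 23% and 22.1% of all genes. Piwil4 and Piwil2, PIWI proteins, fell by 2.76 ± 0.23 and 0.97 ± 0.15, the Tudor proteins Tdrd1 and Tdrd5 by 1.71 ± 0.14 and 2.00 ± 0.14, and the helicase Mov10l1 by 1.03 ± 0.13, while Tdrkh rose by 0.62 ± 0.16 and Mael was at -0.09 ± 0.12.

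The median change of X-linked genes was above that of every autosome. Of 665 X-linked genes, 195 (29.3%) were higher and 125 (18.8%) lower, with a median log2 fold change of 0.36, against 0.02 over 14709 autosomal genes and a range of medians from -0.15 on chromosome 15 to 0.18 on chromosome 12. Among 22 Rhox homeobox genes of the X chromosome, 8 rose and 1 fell (2 without GFRA1-negative library 2). The rises were mainly of the Rhox2 copies, such as Rhox2e (1.86 ± 0.20) and Rhox2a (2.03 ± 0.23), which are near-identical and therefore uncertain one by one, and of Rhox13. Rhox1 fell by 1.77 ± 0.27. Of 28 imprinted genes, 13 fell (46.4%) and 4 rose (14.3%), against 23% and 22.1% of all genes. Peg10 fell from a mean of 64.5 to 9.84 CPM and its neighbour Sgce from 5.99 to 0.222 CPM, the noncoding RNA Rian fell by 2.31 ± 0.27 and Ascl2 rose by 1.71 ± 0.22.

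Interferon-linked genes and genes of class I antigen presentation were lower in Kit-positive cells for 18 of 26 members, with a median of -1.53, and 1 rose. Tapbp, which loads peptides, had 54.2, 52.9, 62.7 and 69.1 CPM in GFRA1-negative and 11.1, 15, 9.08, 7.33 and 7.8 CPM in Kit-positive libraries. The transcription factors Irf1 and Irf2 fell by 2.53 ± 0.27 and 3.12 ± 0.37, the GTPase Irgm1 by 4.28 ± 0.39, and the immunoproteasome subunits Psmb9 and Psmb10 by 1.57 ± 0.34 and 1.70 ± 0.27. The gene that rose was H2-K1, a class I heavy chain, by 2.24 ± 0.30, and Irf7 at -0.52 ± 0.45 did not pass.

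Energy metabolism changed in opposite directions. Of 30 glycolysis and pyruvate genes, 14 fell and 4 rose. The glucose transporter Slc2a1 had 116, 99.2, 137 and 143 CPM in GFRA1-negative and 17.4, 26.1, 17.6, 13.6 and 13.2 CPM in Kit-positive libraries. Eno1, an enolase, fell by 2.22 ± 0.19, Pkm, pyruvate kinase, by 1.90 ± 0.15, Ldha, lactate dehydrogenase, by 1.64 ± 0.39, and the regulators Pfkfb3 and Pdk1 by 2.70 ± 0.20 and 2.72 ± 0.18. Mpc1, which carries pyruvate into mitochondria, rose by 1.71 ± 0.21.
Among 81 subunits of oxidative phosphorylation 57 rose and 1 fell, a count that was 0 to 2 when single libraries were left out. The rises covered 29 of 37 complex I, 7 of 9 complex III, 7 of 14 complex IV and 13 of 17 complex V genes, and 1 of 4 of complex II. Ndufa4 rose by 2.45 ± 0.23, Uqcr11 by 2.18 ± 0.18, Atp5e by 2.40 ± 0.22 and Atp5pb by 1.70 ± 0.14. Subunits such as Atp5a1 (0.15 ± 0.11) and Uqcrc1 (-0.10 ± 0.16) did not pass.

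The cytosolic ribosome had 65 of 84 protein genes higher and 3 lower, and the mitochondrial ribosome 53 of 78 higher and 2 lower. Rpl39 had 221, 208, 187, 366 and 239 CPM in Kit-positive and 30.4, 18.8, 32.6 and 20.2 CPM in GFRA1-negative libraries. Rpl22 rose by 2.39 ± 0.22 and Mrpl18 by 1.90 ± 0.14, while Rps4x and Rpl5 fell by 1.76 ± 0.23 and 0.86 ± 0.17. Ribosomal protein genes have many processed copies in the genome, so single values are uncertain. The genes that build ribosomes did not rise with them: 11 of 47 rose (23.4%) and 13 fell (27.7%), shares near those of all genes. Heatr1, a factor of rRNA transcription, fell by 1.20 ± 0.13 and Ncl, nucleolin, rose by 1.06 ± 0.16.
Transcript length moved with these results. The median log2 fold change went from 0.18 in the shortest of 5 equal groups of genes (up to 765 bases) through 0.12, 0.06 and -0.05 to -0.14 in the longest (2784 bases and over). The median length of the tested genes was 1462 bases, and it was 638 for cytosolic ribosomal proteins, 581 for oxidative phosphorylation and 848 for mitochondrial ribosomal proteins. With an offset for length, 61, 53 and 46 genes of these lists were higher and 3, 3 and 2 lower, with medians of 0.85, 0.80 and 0.63. Replication-dependent histones were shorter still, at a median of 530 bases. Of these, 31 rose and 8 fell with the offset, beside 34 and 5 without it, and the median went from 0.93 to 0.75. Glycolysis genes were also short, at 747 bases, and 14 fell and 4 rose with and without the offset.

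More proteasome and redox genes rose than fell. Of 46 proteasome genes, 24 rose and 6 fell, with Psma1 (1.92 ± 0.14) and Psmb3 (1.79 ± 0.19) of the core particle up and Psmd7 (-2.08 ± 0.13) of the lid and the activator Psme1 (-1.35 ± 0.17) down. Of 41 antioxidant and selenoprotein genes, 3 fell (5 without Kit-positive library 2) and 21 rose, among them Txn1, thioredoxin, by 2.06 ± 0.22 and Prdx1, a peroxiredoxin, by 1.10 ± 0.15.
Sterol genes had 5 higher (17.9%) and 6 lower (21.4%) of 28, shares near those of all genes, with the regulator Srebf2 down by 1.67 ± 0.18. Amino acid transporters and enzymes had 8 higher (20.5%) and 14 lower (35.9%) of 39, against 22.1% and 23% of all genes. Slc7a5, a leucine transporter, fell from 601 CPM ± 43 (SD, n = 4) to 274 CPM ± 47 (SD, n = 5), and Slc38a1, a glutamine transporter, by 3.08 ± 0.27. In the BCL2 family 4 were higher (23.5%) and 3 lower (17.6%) of 17, again near the shares of all genes. Bax, which permeabilises mitochondria, rose by 1.39 ± 0.18 and Bmf fell by 1.45 ± 0.23. Genes of the p53 family and targets had 2 higher (10.5%) and 6 lower (31.6%) of 19, against 22.1% and 23% of all genes. Aminoacyl-tRNA synthetases had 5 higher (27.8%) and 2 lower (11.1%) of 18, and 4 lower without Kit-positive library 2. Heat shock genes and cochaperones had 8 higher (25%) and 7 lower (21.9%) of 32, shares near those of all genes.

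**Figure D4:**
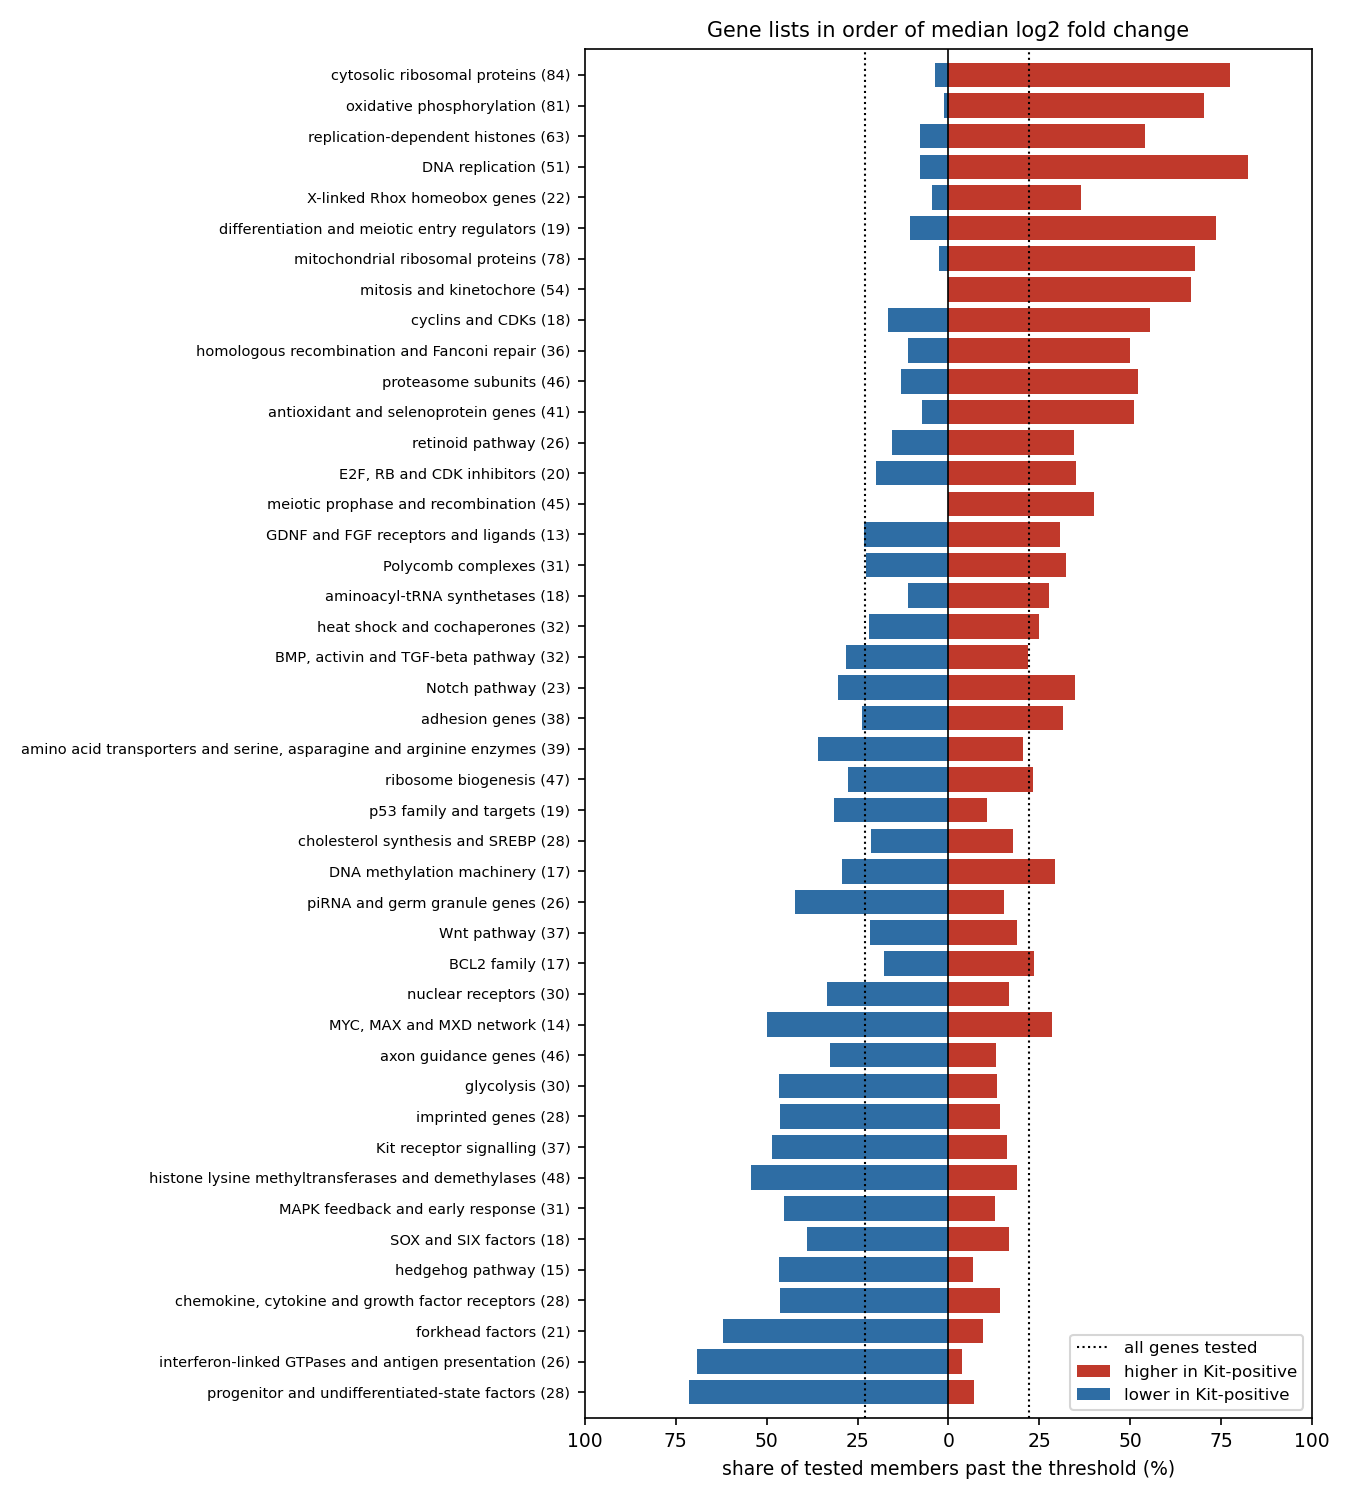
Share of the tested members of each gene list, without the markers of other cells, that were higher (red, right) or lower (blue, left) in Kit-positive libraries by the edgeR test, in order of the list's median log2 fold change, with the number tested in parentheses; dotted lines mark the shares over all genes tested, 22.1% and 23%. Ribosomal, respiratory, histone and replication lists lie at the top, and the progenitor, interferon-linked and forkhead lists at the bottom.

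Markers of other testis cells were read in the same libraries. The summed level of 12 Leydig cell markers was 224, 135, 91.2, 142 and 166 CPM in Kit-positive libraries 1 to 5 and 63.6, 86.8, 66.3 and 63.6 CPM in GFRA1-negative libraries 1 to 4, without overlap. Of the 11 tested, 9 were higher (4 without Kit-positive library 1, 5 without GFRA1-negative library 4) and 0 lower by the edgeR test (0 also at an unadjusted p of 0.05, by DESeq2 and by limma voom). Cyp17a1, a steroidogenic enzyme, had 16.5, 8.35, 1.69, 9.04 and 15.1 CPM and 1.13, 3.28, 1.16 and 0.494 CPM, with a log2 fold change of 2.71 ± 0.68 that was 3.43 without GFRA1-negative library 2, and Star, the cholesterol carrier of the same cells, was at 0.46 ± 0.25 (edgeR adjusted p = 0.15). The means in GFRA1-negative and Kit-positive libraries were, in CPM, Cyp11a1 at 0.458 and 5.47, Hsd3b1 at 0.722 and 7.25, Hsd3b6 at 1.52 and 16.1, Hsd17b3 at 0.309 and 3.28, Akr1cl at 0.1 and 3.85 and Insl3 at 1.91 and 14. The remaining markers were Fdx1 at 21.5 and 28.7, Scarb1 at 29.5 and 45.2, Nr5a1 at 0.963 and 1.19 and Lhcgr at 0.0289 and 0.476 CPM in the same order. The summed markers of endothelium (7.28 to 10.8 against 17.8 to 28.2 CPM), of peritubular myoid cells and fibroblasts (17.7 to 34.3 against 37.3 to 41.6 CPM) and of macrophages and leukocytes (4.5 to 11.8 against 13.9 to 15.9 CPM) were lower in Kit-positive libraries, also without overlap.
Sertoli cell markers summed to 93 to 149 CPM in Kit-positive and 111 to 158 CPM in GFRA1-negative libraries, spermatocyte markers to 517 to 1233 and 596 to 2854 CPM and spermatid markers to 719 to 2184 and 737 to 3022 CPM, all with overlap. Of 13 Sertoli markers tested, 4 were higher (30.8%) and 2 lower (15.4%) in Kit-positive libraries, against 22.1% and 23% of all genes. Of this list only Sox9, Amh and Fshr are given in this paragraph, and their low values do not stand for the list. Sox9 was at 1.78 and 1.23, Amh at 0.206 and 0.217 and Fshr at 0.163 and 0.0962 CPM in GFRA1-negative and Kit-positive libraries. Of the leukocyte markers, Ptprc at 0 and 0.0259, Adgre1 at 0.12 and 0.188, Csf1r at 1.9 and 2.09, C1qa at 0 and 0.182, C1qb at 0.626 and 0.497, Lyz2 at 0.0247 and 0.611, Mrc1 at 1.07 and 1.57, Cd14 at 0.628 and 0.782 and Cd68 at 10.5 and 2.98 CPM. Of these, Cd68, a lysosomal gene, and C1qb had lower means in Kit-positive libraries and the others did not. Of the endothelial markers, Pecam1 at 3.96 and 0.308, Cdh5 at 7.58 and 2.14, Vwf at 3.64 and 0.798, Tek at 3.15 and 1.73, Kdr at 1 and 0.622, Eng at 1.51 and 2.01, Tie1 at 0.131 and 0.541 and Emcn at 0.119 and 0.0907 CPM. Of the myoid and fibroblast markers, Col1a1 made up most of the difference in the sum, at 17.6 and 1.88 CPM, and Acta2 at 0.796 and 0.627, Myh11 at 3.11 and 4.99, Cnn1 at 0.549 and 0.322, Tagln at 4.9 and 6.38, Des at 0.331 and 0.554, Col1a2 at 0.219 and 0.535, Col3a1 at 0.261 and 0.156, Dcn at 0.112 and 3.57, Lum at 0.0289 and 0.127, Pdgfra at 7.6 and 3.75 and Pdgfrb at 3.76 and 1.65 CPM. Summed red blood cell markers reached 21.4 CPM in Kit-positive library 1 and 1.5 to 4.54 CPM elsewhere, with means in the 2 groups of 1.39 and 2.48 CPM for Alas2, 0.02 and 1.79 for Hbb-bs, 0 and 1.67 for Hbb-bt and 0.0435 and 0.333 for Slc4a1. The 2 alpha globin rows, Hba-a1 and Hba-a2, held identical counts, at 0.325 and 0.392 CPM. No member of these lists was at 0 in all 9 libraries except Calm4, of the spermatocyte list. The part of any of these transcripts in the results above was not tested, other than by setting aside GFRA1-negative library 2 and Kit-positive library 1.

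**Figure D5:**
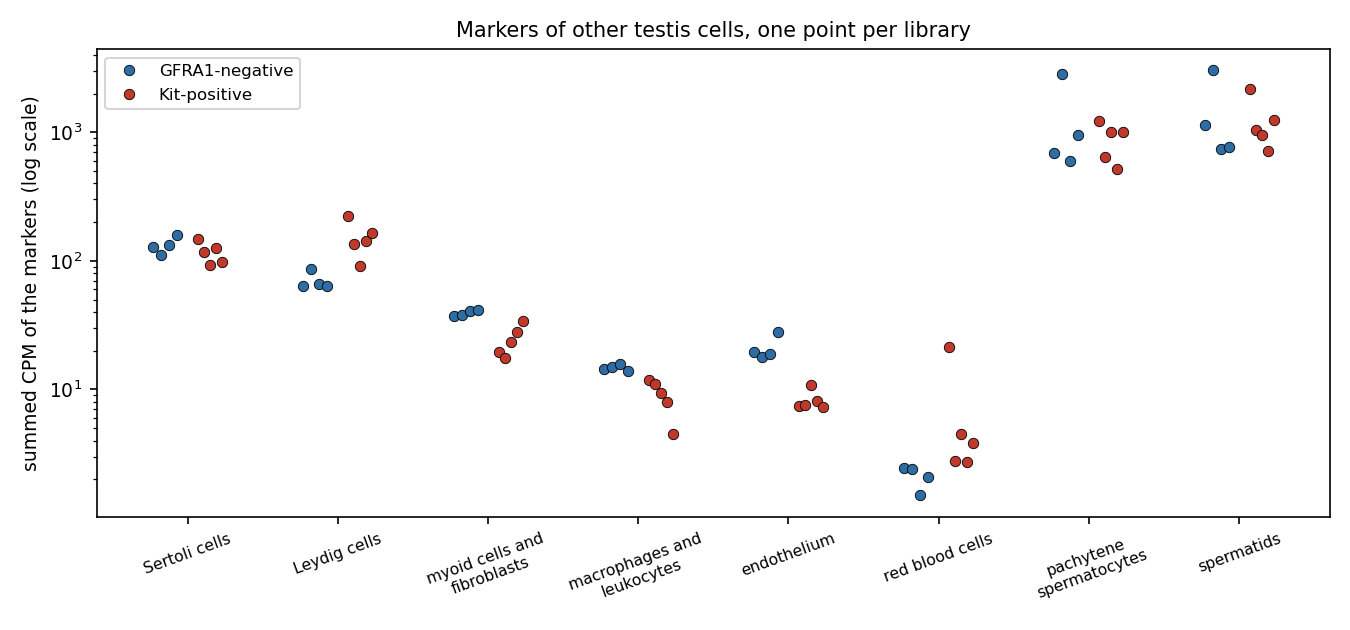
Summed CPM of the markers of each other cell type, on a log axis, in the 4 GFRA1-negative (blue) and 5 Kit-positive (red) libraries. Leydig sums are higher and endothelial, myoid and macrophage sums lower in Kit-positive libraries, and 1 GFRA1-negative library is far above the others in spermatocyte and spermatid markers.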

How the data were processed

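RNA of sorted testis cells was read in 17 libraries, 9 of which are compared here. Per the labels' protocols, cells were freed with collagenase and trypsin, sorted into Trizol LS, amplified with NuGEN Ovation V2, made into TruSeq V2 libraries and sequenced paired-end on a HiSeq2500. The submitters' processing notes name the build mm9, Trim Galore, TopHat2 2.0.4, Bowtie, Bowtie2 2.0.0-6, DESeq and DESeq2, without their roles, and the strand setting of the counting is not given in the sources used here. The deposited table holds whole-number counts per Entrez gene, not normalized, made by the authors.

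Rows were named by Entrez ID from the RefSeq table, where 23930 of 24013 matched, and the 83 others were tested without a name. Counts were scaled by TMM and tested with edgeR 4.0.16 (quasi-likelihood F-test) in 1 fit over all 17 libraries with group as the only term, after filterByExpr with its default minimum of counts, and Benjamini-Hochberg adjustment over all 15451 genes at a threshold of 0.05. limma 3.58.1 and DESeq2 1.42.0 in R 4.3.3 served as alternatives. Promoters were matched to genes by Entrez ID from the RefSeq table on GRCm38.p6, and no coordinate was carried over from mm9. Replicates differed by more than sampling noise in all 16 pairs checked (chi-square per degree of freedom from 7.33 to 46.48). In simulated counts, 5.97% of 67 genes changed 1.5-fold, 49.3% of 67 changed 2-fold and 90.9% of 66 changed 4-fold were recovered, among 15168 genes tested. Far fewer genes were changed there than the 6969 called in the data. That makes the adjusted threshold stricter in the simulation, so these shares do not give the recovery in the comparison itself.

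Members and gene lists were chosen with earlier results of these data known. The rule for named genes took the gate genes and stage markers, the 15 largest rises and 15 largest falls by fold (mean of at least 20 CPM in 1 group, no overlap, no duplicate row), up to 6 members of each list with the smallest adjusted p, up to 4 that did not pass, and all members of lists of 12 or fewer. The other genes named within lists were chosen after their values were seen. Some genes that the rule selects are not reported here.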

Additional observations from a re-analysis of the deposited data

Results flagged for a closer look

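Within the libraries of each group, 632 sets of values, 1 for each named gene or marker sum in each group, were examined by Dixon's gap test. It looks for a single library far from the rest, and 62 sets stood out. The nominal rate of the test, 1 in 20, holds for independent normal values. A gene with counts in only 1 library of a group is always flagged, and genes of a library can vary together. The 62 therefore cannot be read as an excess over that rate. GFRA1-negative library 2 held 17 of them and Kit-positive library 1 held 12, the pair that also stood highest in spermatid transcripts. The values below are in CPM, each with the nearest value of its group in parentheses.

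GFRA1-negative library 2 was the highest of its group for Adgre1 at 0.48 (0), Akr1cl at 0.4 (0), Cyp11a1 at 1.6 (0.231), Fshr at 0.56 (0.0941), Hbb-bs at 0.08 (0), Hsd17b3 at 1.12 (0.116) and Hsd3b1 at 2.56 (0.231). GFRA1-negative library 2 was again the highest of its group for Hsd3b6 at 5.84 (0.231), Lrp5 at 24.1 (13.1), Mrc1 at 3.04 (0.47), the summed markers of Leydig cells at 86.8 (66.3) and the summed markers of pachytene spermatocytes at 2854 (955). GFRA1-negative library 2 was the lowest of its group for Cdkn1c at 23.2 (30.8), Igf1r at 559 (635), Notch2 at 158 (164), Prdx1 at 358 (440) and Rarg at 31.3 (47.1). GFRA1-negative library 3 was the highest of its group for Atp5pb at 75.9 (57.4), Chaf1b at 47 (40.2), Lhcgr at 0.116 (0) and Lum at 0.116 (0). GFRA1-negative library 4 was the highest of its group for Lyz2 at 0.0987 (0), Psmb9 at 20.8 (11.9) and the summed markers of endothelium at 28.2 (19.5). GFRA1-negative library 4 was the lowest of its group for Ccne2 at 13.8 (24.7) and Top2a at 176 (221). Kit-positive library 1 was the highest of its group for Amh at 0.84 (0.13), Hba-a1 at 1.96 (0), Hba-a2 at 1.96 (0), Hbb-bs at 8.12 (0.693), Hbb-bt at 7.84 (0.52), Hsd17b3 at 9.66 (2.6) and Irf2 at 1.26 (0.52). Kit-positive library 1 was again the highest of its group for the summed markers of red blood cells at 21.4 (4.54). Kit-positive library 1 was the lowest of its group for Fancc at 9.66 (16.7), Fgfr3 at 12.7 (19.2), Lgr4 at 25.6 (46) and Tet3 at 77.1 (111). Kit-positive library 2 was the highest of its group for Ascl2 at 51.6 (33.2), Cdh1 at 17.7 (9.52), Des at 1.97 (0.519), Ephb4 at 62.6 (39.8), Gbp2 at 0.58 (0.13), Mcm10 at 48.1 (41.4) and Srebf2 at 173 (101). Kit-positive library 3 was the highest of its group for C1qa at 0.908 (0), Foxk1 at 33.5 (16.7), Ptprc at 0.13 (0), Vwf at 2.59 (0.512) and the summed markers of endothelium at 10.8 (8.19). Kit-positive library 4 was the highest of its group for Magea4 at 4.26 (2.25), Mcm4 at 153 (132), Prdm9 at 54.2 (26.3) and Rpl39 at 366 (239). Kit-positive library 5 was the highest of its group for Acta2 at 2.6 (0.42), Dcn at 10.4 (2.24), Epcam at 95.6 (62.5), Ncl at 1386 (978), Tagln at 10.9 (5.8) and Tdrkh at 165 (107). Kit-positive library 5 was the lowest of its group for Acvr1b at 1.56 (5.84) and Cyp26b1 at 3.64 (11.9).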

How the results depend on the processing

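The count of genes higher ran from 2782 to 3605 and of genes lower from 3090 to 3902 over the other scalings, filters, tools, the fit on 9 libraries alone and an offset for transcript length, beside 3419 and 3550. A test against a fold of 1.5 left 1558 higher and 1890 lower, by its own construction. Leaving out 1 library gave 3037 to 3343 higher and 3173 to 3644 lower. Replicate numbers do not pair the libraries (same-numbered libraries had correlations of -0.26 to -0.026 in their deviations), and a replicate block gave 3351 higher and 3507 lower, and among the named genes it changed the call of Ddx4 only. Without the 2 most abundant rows 3074 were higher and 3822 lower, and the share of calls that were higher ran from 44.6% to 51.3% over all settings. The length offset and the fit without GFRA1-negative library 2 and Kit-positive library 1 were chosen after seeing the data.

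Of 259 named and tested genes, all but Sohlh1, Sycp1 and Sycp3 kept their direction in every setting, and of the 223 that passed, 221 passed in every setting but the fold threshold, the exceptions being Dazl, by the values given beside it, and Mir6236 (limma voom adjusted p = 0.052). None of the genes whose sign turned had passed the test. On the log2 scale Sohlh1 was 0.08 with the replicate block and from -0.23 to 0.07 without single libraries. Sycp1 was -0.18 with the replicate block, -0.02 without the 2 most abundant rows, -0.04 without both libraries named above and from -0.16 to 0.25 without single libraries. Sycp3 was 0.17 by limma voom, 0.01 with the replicate block and from -0.37 to 0.32 without single libraries. The cause was not tested. The lower depth of the Kit-positive libraries limits low genes, since a count of 0 allowed up to 0.085 CPM over that group and 0.072 CPM over the other.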
